A study of Rattus norvegicus with 67 samples.

Results

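Tumours and normal endometrium were compared in rats that had received a weight-loss intervention on a high fat diet (HFD). The members were all libraries of sequencing batch 2 labelled HFD and liraglutide (LIR) or diet restriction (RES), 28 of the 65 libraries with values, of 67 in the labels. They comprised 6 tumour libraries from 4 rats and 22 libraries of normal endometrium from 19 rats. All were BDII/Han rats, a strain that develops endometrial cancer without a carcinogen or transgene, and each library was bulk polyadenylated RNA from dissected uterine tissue. HFD, with 60% of its energy as fat, was given from 3 months of age, and tissue was taken at 15 months. LIR rats ate HFD freely and were injected daily with liraglutide, raised from 0.01 to 0.24 mg/kg/day. They gave 3 tumour libraries from 2 rats and 12 normal libraries from 9 rats. RES rats ate HFD freely to 12 months of age and a restricted amount of it from 12 to 15 months. They gave 3 tumour libraries from 2 rats and 10 normal libraries from 10 rats.

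The endometrium is the lining of the uterus, in which glands of epithelium lie in a stroma with vessels and immune cells, and endometrial adenocarcinoma arises from the glands. Liraglutide is an agonist of the receptor for GLP-1, a gut hormone that lowers appetite, and was used here only to reduce weight. A bulk library mixes all cell types of its piece of tissue. Fewer cells of a type and less RNA per cell therefore cannot be told apart in any value below. The measured features were Ensembl transcripts. Gene names are not paired with these identifiers in the sources used here, so no gene or marker list was described and the labelled tissues were not checked against defining markers.

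A rat was taken as a number within an intervention. The 4 tumour-bearing rats were RES rat 2 (tumour library S36, normal library S37), RES rat 9 (tumours S42 and S43, normal S44), LIR rat 19 (tumours S60 and S61, normals S54, S62 and S63) and LIR rat 24 (tumour S66, normal S67). Each thus gave both tissues. Library depth, as the sum of estimated counts, ranged from 16185500 to 20029900 (median 17842200). Per rat, tumours had 18604300 counts ± 859201 (SD, n = 4 rats) and the normal endometrium of the 15 rats without a tumour library had 17543100 ± 843865 (SD). The exact two-sided permutation test gave p = 0.0395, or 0.0526 adjusted over the 4 measures tested in this way.

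A number of normal libraries stood apart before any comparison. S64 of LIR rat 20 was deepest, and 902 of its transcripts lay more than 2-fold below every normal library of other rats. The next normal library was S59 of LIR rat 17, with 280 transcripts above and 292 below that range. Animal numbers in the labels also ran from 2 to 21 over S36 to S56 and began again at 14 with S57. The 4 LIR normal libraries of the first run, S53 to S56, lay at −52.8 to −8.19 on the second principal component, and the 8 of the second run lay at 7.47 to 94.5. Over pairs from different rats, S53 to S56 had a median correlation of 0.922 with RES normal libraries and of 0.890 with the other LIR normal libraries. All 3 LIR tumour libraries belonged to the second run, and among LIR rats the numbers 19 and 20 occurred in both. Numbers 14, 16 and 17 occurred in both runs too, with RES or no intervention in the first and LIR in the second. By these labels a number could stand for more than 1 animal. Whether LIR rats 19 and 20 of both runs were the same animals was not tested. Counts of calls, values per tumour library and the LIR groups are given below also without S53 to S56 or without S59, S64 or both.

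The 6 tumour libraries did not differ from normal endometrium to the same degree. Levels in scaled CPM (counts divided by a scaled library total) were computed for 19973 transcripts, which reached 5 estimated counts or more in no fewer than 47% of the 28 libraries. The first principal component, with 22.2% of the variance, placed S36 at 108, S42 at 200 and S43 at 205. The 22 normal libraries lay between −57.2 and 30.5, with a median of −38.0. The RES tumours therefore lay outside the normal range on this axis. LIR tumour S66, at 41.6, also lay above the highest normal library, whereas S60 at 24.0 and S61 at −10.8 lay within the normal range. Only S59 lay above S60 among normal libraries, and the next was S63 of LIR rat 19, at 19.6.

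**Figure D1:**
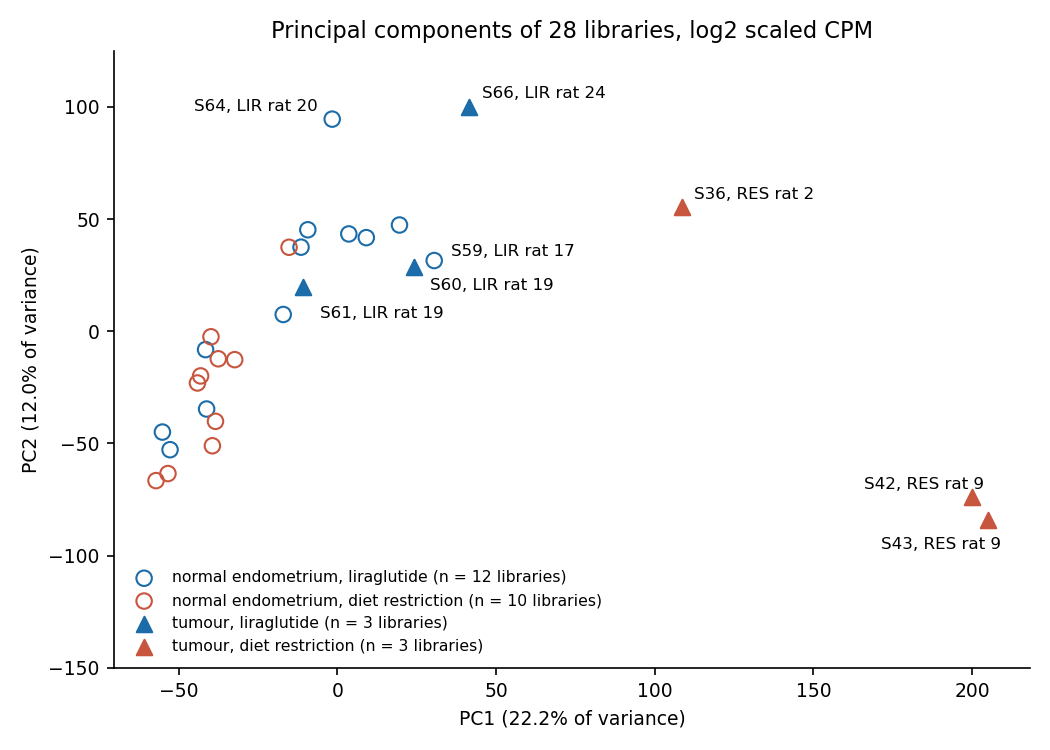
First and second principal components (22.2% and 12.0% of the variance) of log2 scaled CPM in 28 libraries, with tumours as filled triangles and normal endometrium as open circles, blue for LIR and red for RES. The 3 RES tumour libraries lie to the right of every normal library, at 108 to 205, whereas the LIR tumours lie at −10.8 to 41.6.

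The same order was seen in correlations with normal libraries of other rats. The median correlation over these normal libraries was 0.784 for S43, 0.789 for S42 and 0.816 for S36. It was 0.873 for S66, 0.881 for S60 and 0.910 for S61. The normal libraries themselves had 0.851 to 0.924 (median 0.910). Only the RES tumours thus fell below the least typical normal library, S64, and S61 was at the median of normal endometrium. Without S59 and S64, normal libraries had 0.8887 to 0.925, and S66 at 0.873 and S60 at 0.8881 also fell below them. Without S53 to S56, normal libraries had 0.849 to 0.916, and S66 at 0.873 and S60 at 0.885 lay within that range. Per rat, the mean was 0.843 ± 0.0504 (SD, n = 4) in tumours and 0.904 ± 0.0139 in the 15 rats without a tumour library. The difference had an exact two-sided permutation p of 0.00206 (adjusted p = 0.00826, smallest possible p 0.000258). This difference remained past an adjusted p of 0.05 when each of the 4 tumour-bearing rats was left out in turn. The exact permutation p was 0.000980 without S59 and S64 and 0.0101 without S53 to S56. Transcripts with at least 5 counts numbered 19683 ± 316 per rat in tumours against 20027 ± 260, a difference not past an adjusted p of 0.05 (adjusted exact p = 0.0526). The share of all counts in the 100 most abundant transcripts was 28.2% ± 3.99 against 27.3% ± 2.37 (adjusted exact p = 0.557).

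Transcripts outside the range of normal endometrium were counted in each library as those more than 2-fold above or below every normal library of other rats. S42 had 977 above and 1648 below, and S43 had 943 above and 1781 below. S36 had 777 above and 843 below. In the LIR tumours there were 191 above and 87 below in S60, 157 and 182 in S66, and 11 and 42 in S61. Normal libraries had 16 to 928 transcripts outside, with a median of 61. Leaving aside S64 and S59, the other 20 normal libraries had 16 to 243. S60, with 278 in all, and S66, with 339, thus lay above these 20 and below S59 and S64, and S61, with 53, was near the normal median. With S59 and S64 left out of the comparison, S60 had 411, S66 577 and S61 75, against 20 to 393 in normal libraries. Without S53 to S56 they had 292, 350 and 62, against 20 to 977 in normal libraries. A stricter count took transcripts at 5 scaled CPM or more in a library and under 1 in every such normal library. It gave 182 in S42, 167 in S43, 49 in S36, 51 in S60, 8 in S66, 0 in S61 and at most 8 in a normal library.

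**Figure D2:**
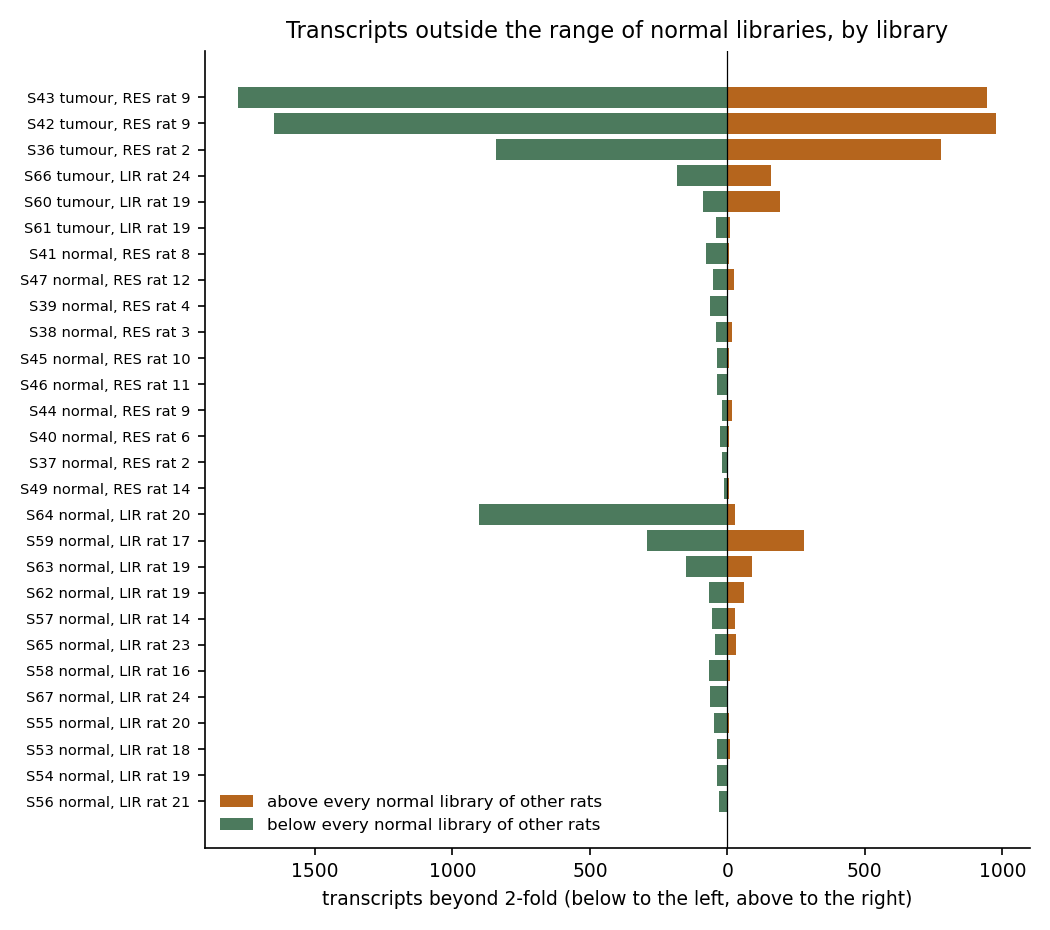
Number of transcripts more than 2-fold above (right, brown) or below (left, green) every normal library of other rats, for each of the 28 libraries. The RES tumours S42, S43 and S36 have 777 to 977 above and 843 to 1781 below, and the LIR tumours S66 and S60 (339 and 278 in all) exceed 20 of the 22 normal libraries, with S64 and S59 beyond them, whereas S61 has 53.

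Over both interventions, with the intervention as a term, 5517 of 19973 transcripts (27.6%) differed between tumours and normal endometrium at an adjusted p under 0.05, 3148 higher in tumours (15.8%) and 2369 lower (11.9%). The limma fit took libraries of a rat as correlated, at 0.0816. Among those called, 918 were more than 2-fold higher and 1199 more than 2-fold lower. With scaling by library size only, 1896 were higher and 3447 lower, and the median difference of all transcripts moved from −0.01 to −0.16 on the log2 scale. The side on which most calls lay therefore depended on the scaling. The count was 5779 without S64 and 4215 without S53 to S56. In a fit with the rat as a fixed block, which uses only the 12 libraries of the 4 rats with both tissues, 0 transcripts were called and 3709 had an unadjusted p under 0.05.

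The difference was concentrated in the RES rats. In RES alone, with all 28 libraries in the fit, 8682 transcripts (43.5%) differed, 4674 higher in tumours (23.4%) and 4008 lower (20.1%). Of these, 2208 were more than 2-fold higher and 2927 more than 2-fold lower. With scaling by library size only the split in RES was 3186 higher and 5249 lower. In LIR, 0 transcripts were called, 1392 had an unadjusted p under 0.05 and the smallest adjusted p was 0.0642. edgeR and DESeq2 on counts summed per rat and tissue called 65 and 154 in LIR, of which 64 and 110 were higher in tumours. The 95% interval of the LIR difference lay wholly within 2-fold in either direction for 11154 transcripts (55.8%), and for the rest it included differences of 2-fold or more. The median standard error was 0.30 in LIR and 0.33 in RES on the log2 scale.

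The difference between the tissue contrasts of both interventions was tested in the same fit. It was called for 4521 transcripts (22.6%), with the LIR value larger in 2229 (11.2%) and smaller in 2292 (11.5%), or in 2648 and 1377 with scaling by library size only. Of the 4521, 4394 were also called in RES, which is 97.2% of the former and 50.6% of the latter. In absolute size the fitted difference was larger in RES than in LIR for 4450 of the 4521. In 2118 (46.8%) the fitted signs were opposite. The 4521 were picked by the difference between RES and LIR in this same fit. Their overlap with RES calls, sizes and signs follow in part from that choice, and shares of larger size or opposite sign over all transcripts were not computed. Of the pooled calls, 5176 (93.8%) were also called in RES, and 3506 RES calls (40.4%) were not called with the interventions pooled. Without S64, the counts were 0 in LIR, 8938 in RES and 4866 for the difference between them. Without S53 to S56 they were 0, 8900 and 5584.

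Separation of single libraries gave the same picture. The 3 RES tumours were all above the 10 RES normal libraries in 3014 transcripts and all below them in 3095, 30.6% of those tested. The 3 LIR tumours were all above the 12 LIR normal libraries in 47 transcripts and all below in 32 (0.396%). These LIR counts were 78 and 121 (0.996%) without S59 and S64, with 10 normal libraries left. They were 82 and 62 (0.721%) without S53 to S56, with 8 left. Separation is more frequent by itself against fewer normal libraries, so these rises do not measure the libraries left out. All 6 tumours were above all 22 normal libraries in 8 transcripts and below in 8 (0.0801%).

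Transcripts called in RES were then read in the LIR tumours, against the 12 LIR normal libraries. These include normal libraries of the tumour-bearing LIR rats 19 and 24, and none is from a RES rat. Of the 4674 higher in RES tumours, 69.8% had a fitted LIR difference above 0, with a median of 0.11 on the log2 scale against 0.96 in RES. Of the 4008 lower in RES tumours, 33.5% were above 0 in LIR, and the median was −0.12 in LIR against −1.59 in RES. Over all tested transcripts 50.9% were above 0 in LIR. LIR values thus leaned to the direction seen in RES with medians near 0. By library, S60 was above the LIR normal median in 67.9% of those higher in RES and 32.98% of those lower. S66 was above it in 67.7% and 33.5%. S61 was above it in 49.9% and 49.4%, close to its share over all tested transcripts of 50.6%. The lean was therefore carried by S60 and S66, from 2 rats, and not by S61. It was smaller without S53 to S56, at 59.7% and 39.3% for S60 and 61.98% and 38.1% for S66. S61 then leaned the other way, at 37.3% and 58.4%. Without S59 and S64 the shares were 69.4% and 31.3% for S60, 69.0% and 33.1% for S66, and 53.4% and 46.5% for S61.

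The count of calls depended on single tumour-bearing rats, most of all on RES rat 9. Without RES rat 9, 812 transcripts were called with the interventions pooled, 680 higher and 132 lower, and 4871 in RES, 3509 higher and 1362 lower. Without RES rat 2 these counts were 3564 and 8096. The RES tumours were then the single library S36 or the 2 libraries of rat 9, and their spread between rats was taken from the other groups. Leaving out LIR rat 19 raised the pooled count to 7738 and the LIR count to 176, of which 172 were higher in tumours, and lowered the count for the difference between interventions to 1360. The LIR count then rested on the single tumour library S66, assumed to vary like the other groups. Without S61 alone, 57 were called in LIR. Leaving out any of the 15 rats without a tumour library kept the pooled count between 5056 and 6087.

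**Figure D3:**
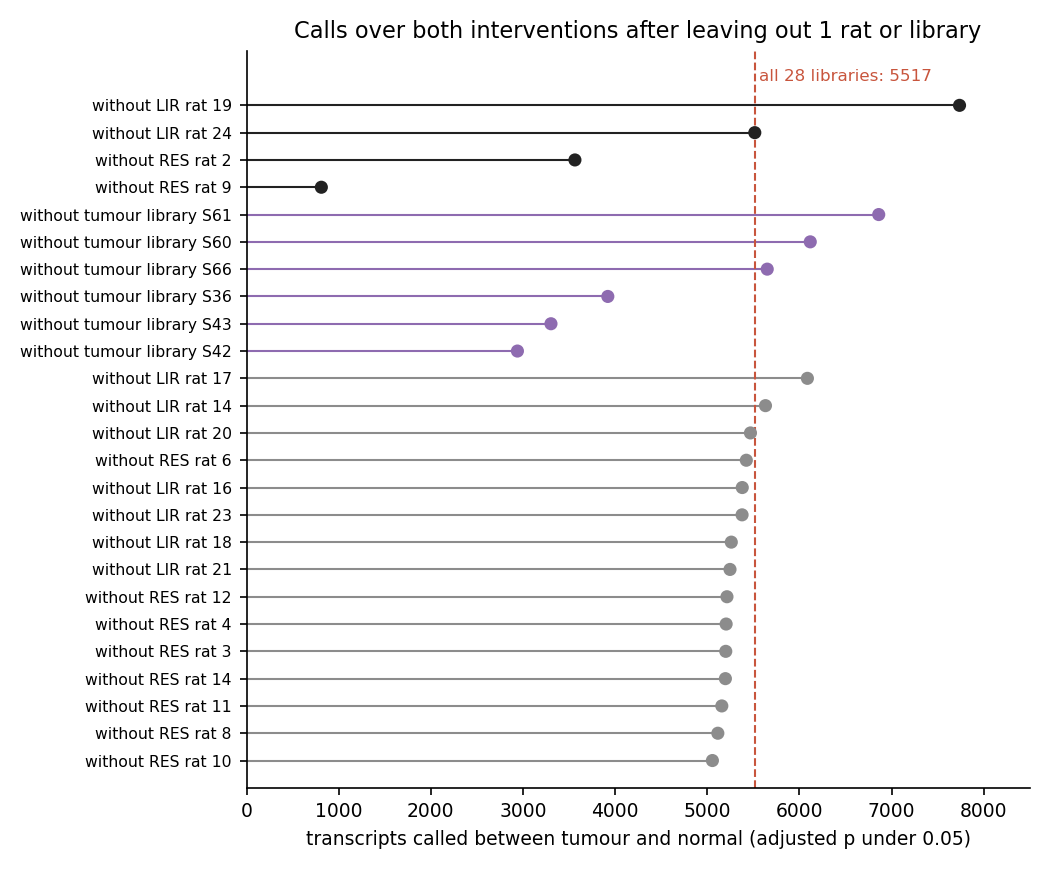
Number of transcripts called between tumour and normal endometrium over both interventions (adjusted p under 0.05) after leaving out each tumour-bearing rat (black), each tumour library (purple) or each other rat (grey), against 5517 with all 28 libraries (dashed line). The count falls to 812 without RES rat 9 and rises to 7738 without LIR rat 19.

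Tumour and normal endometrium were also compared within each of the 4 rats. This leaves out differences between animals where the libraries of a number are from 1 animal, which was not tested for S54 of LIR rat 19. In RES rat 9, 3341 transcripts were more than 2-fold higher and 5237 more than 2-fold lower in tumour, 42.9% of 19973 in all. In RES rat 2, 3358 were higher and 4421 lower (38.9%). In LIR rat 24, 2132 were higher and 2114 lower (21.3%), and in LIR rat 19, with 2 tumour and 3 normal libraries averaged, 1031 were higher and 998 lower (10.2%). Libraries of 1 tissue from 1 rat gave the scale for these shares. The tumour pair S42 and S43 differed beyond 2-fold in 14.6% of transcripts and S60 and S61 in 15.6%. The normal pair S62 and S63 differed in 12.3%, S54 and S62 in 23.4%, S54 and S63 in 25.97% and S55 and S64 in 28.04%. The RES rats exceeded every one of these pairs. For rat 19, single tumour libraries set against single normal libraries of the rat differed in 14.1% to 23.8% of transcripts over 6 pairs. These and the 21.3% of rat 24 lay within the span of the same-tissue pairs. The upper part of that span came only from pairs of S54 or S55 with a library of the second run, which may not be from 1 animal. Same-tissue pairs within a run differed in 12.3% to 15.6%, and rat 24 exceeded these. Of the rat 19 pairs within the second run, S61 and S62 differed in 14.1%. The others, S60 with S62 or S63 and S61 with S63, differed in 17.4% to 17.7%. Against S54 alone, the share in rat 19 was 18.9%, and against S62 and S63 it was 12.5%.

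**Figure D4:**
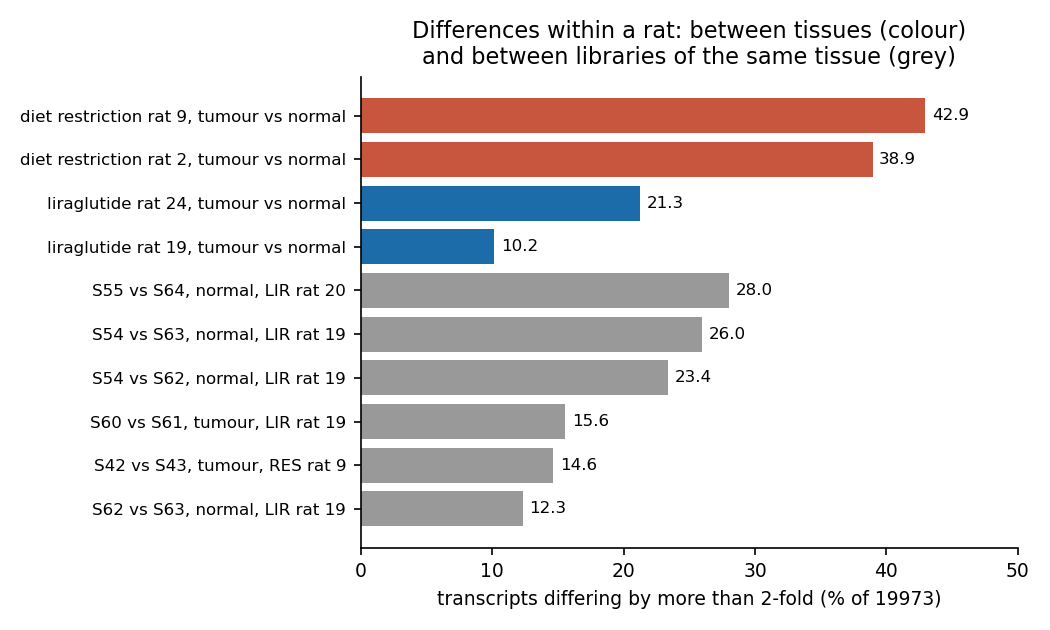
Share of 19973 transcripts differing by more than 2-fold between tumour and normal endometrium of the same rat (red for RES, blue for LIR) and between libraries of the same tissue and rat (grey). RES rats 9 and 2, at 42.9% and 38.9%, lie above every grey bar, the highest of which is 28.04%. Grey bars above 15.6% all join S54 or S55 with a library of the second run, which may not be from 1 animal.

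The within-rat differences were only partly shared. Across transcripts, which are not independent replicates, the difference in RES rat 2 correlated with that in RES rat 9 at r = 0.36 (Spearman's rho 0.40). For the other 5 pairs of rats r was between 0.09 and 0.29, the highest for RES rat 2 and LIR rat 24. The rats of a pair shared no library. In RES rats 2 and 9, 1204 transcripts were more than 2-fold higher in both, 2513 lower in both and 1038 went in opposite directions. Across all 4 rats, 89 transcripts (0.446%) were more than 2-fold higher and 134 (0.671%) more than 2-fold lower. The 6 tumours were similarly unlike each other. S42 and S43 of 1 rat correlated at 0.94, S60 and S61 at 0.92, and tumours of different rats at 0.80 to 0.90.

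The size and direction of the RES difference varied with abundance. The median log2 difference was −0.42 in the quartile of transcripts with the lowest mean CPM, −0.18 and 0.06 in the next quartiles and 0.13 in the most abundant. The share called rose from 28.01% through 40.3% and 50.03% to 55.6%. Over all transcripts the median was −0.04, or −0.28 with scaling by library size only. Rare transcripts thus lay below that median and abundant ones above it. By transcript length the medians were −0.01, 0.04, −0.02 and −0.16 from the shortest to the longest quartile, and 38.3% to 45.5% were called. In LIR, the medians by abundance were between −0.01 and 0.03. RES tumours had slightly fewer transcripts detected, at 19053 to 19796 against 19962 to 20490 in RES normal libraries, and the part of this in the pattern was not tested.

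A set of 4 transcripts was named by rule, with the smallest p in each direction. ENSRNOT00000084563.1, of 7213 bases, had 625 scaled CPM in S36, 451 in S42 and 888 in S43. It had 219 in S60, 154 in S61 and 1925 in S66. Normal libraries had 6.53 to 40.05 (median 11.9) in RES and 8.85 to 126 (median 33.9) in LIR. Tumours and normal libraries of treated rats thus did not overlap. The 4 HFD normal libraries of batch 2 without an intervention had 15.8 to 240 (median 51.1), the highest of them above S60 and S61. These 4 were scaled together with the treated normal libraries, which then had 6.55 to 127, and not with the tumours. The highest LIR normal values were those of rat 19, 126 in S62 and 124.6 in S63, against 8.98 in S54 of the same number. The pooled log2 difference was 4.53 ± 0.53 (SE, adjusted p = 2.55e-05), 5.61 in RES (adjusted p = 3.69e-06) and 3.53 in LIR (adjusted p = 0.0736).

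ENSRNOT00000000783.4, of 1187 bases, had 79.1 scaled CPM in S36, 51.6 in S42 and 42.1 in S43, against 3.31 to 8.67 (median 6.21) in RES normal libraries. In LIR tumours it had 31.5 in S60, 20.3 in S61 and 27.5 in S66, against 3.78 to 32.4 (median 8.07) in normal libraries. The RES groups were thus apart by several fold, whereas LIR normal library S63, at 32.4, exceeded all 3 LIR tumours. The log2 difference was 2.39 ± 0.29 (SE) pooled (adjusted p = 2.55e-05), 3.25 in RES and 1.63 in LIR. The LIR difference was smaller by 1.63 (adjusted p = 0.0222).

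Lower in tumours was ENSRNOT00000023037.5, of 1755 bases, one of the more abundant transcripts. It had 442 scaled CPM in S36, 507 in S42 and 543 in S43, against 1241 to 2115 (median 1621) in RES normal libraries. It had 966 in S60, 1138 in S61 and 1005 in S66, against 1036 to 2222 (median 1522) in LIR. Levels in RES tumours were thus well under the range of treated normal libraries, and those of LIR tumours lay at its lower edge. Scaled together, treated normal libraries had 1040 to 2212, and the 4 of batch 2 without an intervention had 881 to 1084 (median 959). LIR tumours, scaled apart from these 4, lay within or above the span of the 4, and RES tumours lay below it. The log2 difference was −1.12 ± 0.16 (SE) pooled (adjusted p = 5.91e-05), −1.75 in RES and −0.53 in LIR, and the interventions differed by 1.22 (adjusted p = 0.000622). ENSRNOT00000058906.3, of 2892 bases, had 44.1, 28.8 and 29.8 in S36, S42 and S43 against 65.02 to 90.6 (median 80.4) in normal libraries. In LIR it had 42.8, 54.6 and 38.6 in S60, S61 and S66 against 59.9 to 107 (median 72.4), so that the groups did not overlap in either intervention. The pooled log2 difference was −0.95 ± 0.13 (SE, adjusted p = 3.96e-05), −1.18 in RES and −0.72 in LIR. With the rat as a fixed block, the 4 log2 differences were 4.00, 1.98, −1.11 and −0.85 in the order given, and their adjusted p was 0.121 to 0.154.

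**Figure D5:**
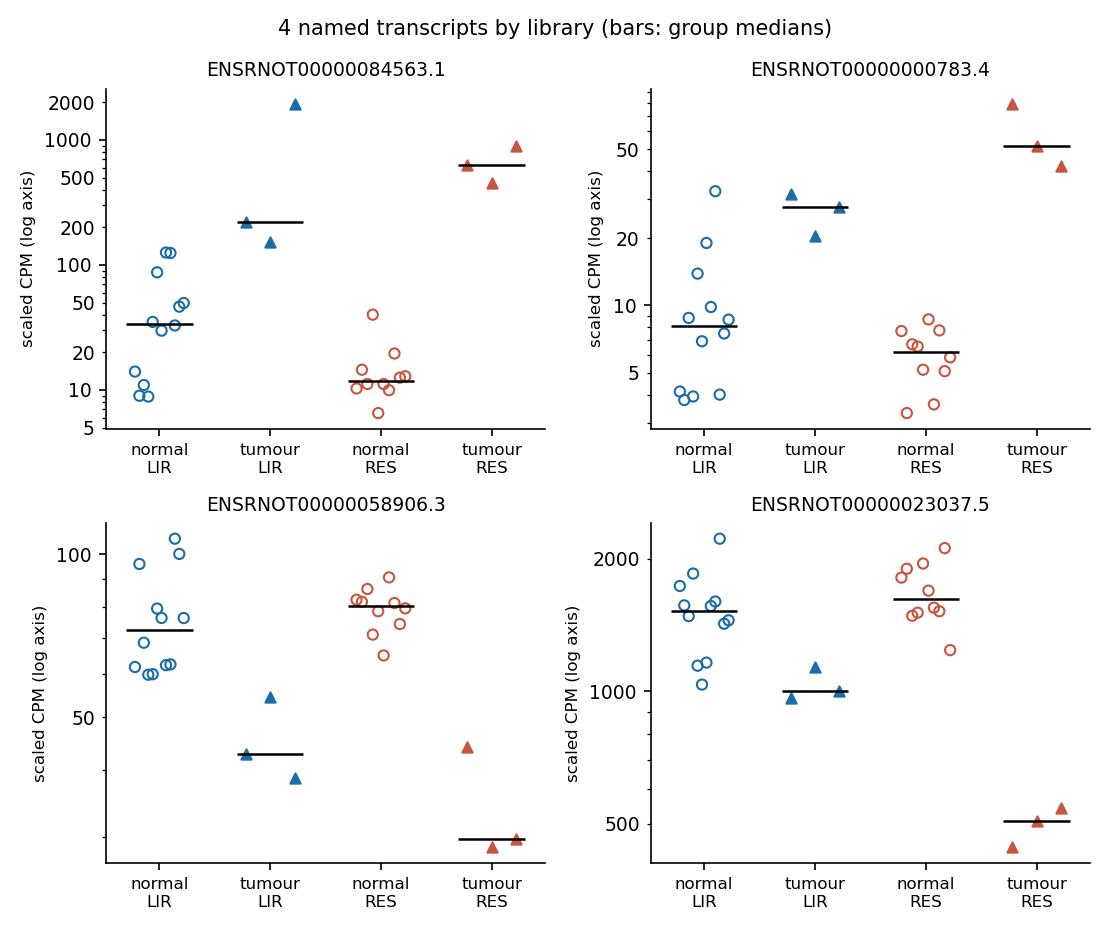
Scaled CPM on a log axis of the 4 named transcripts in each of the 28 libraries, by tissue (circles normal, triangles tumour) and intervention (blue LIR, red RES), with bars at group medians. RES tumours are clear of RES normal libraries in all 4 panels, whereas for ENSRNOT00000000783.4 and ENSRNOT00000023037.5 the LIR groups overlap.

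The tissue difference was set beside that of untreated rats on HFD or normal chow in sequencing batch 1, with 25 tumour libraries from 9 rats and 8 normal libraries from 8 rats. There, 15 of 19998 transcripts (0.075%) were called, 8 higher in tumours (0.04%) and 7 lower (0.035%). The normal libraries S1, S20 and S35 are listed as mixed tissue in the study's supplement. Without them 1051 of 19899 (5.28%) were called, 316 higher (1.59%) and 735 lower (3.69%). In these fits libraries of a rat were taken as correlated at 0.58 and, without the mixed libraries, at 0.63, against 0.0816 in the pooled fit of batch 2. The counts of calls in the batches therefore do not rest on a like weighting of libraries. None of the 4 named transcripts was called in batch 1 with either set. The log2 difference there was 0.62 for ENSRNOT00000084563.1 and 0.61 without the mixed libraries. It was −0.22 and −0.43 for ENSRNOT00000000783.4, opposite to batch 2. For ENSRNOT00000058906.3 it was −0.15 and 0.33, and for ENSRNOT00000023037.5 −0.17 and −0.09. Of the RES calls that were also tested in batch 1, 31.2% had the same sign there, and 29.5% without the mixed libraries. Most RES calls thus had the opposite sign in batch 1. Across transcripts, which are not independent, the RES and batch 1 differences of these calls correlated at r = −0.40 (rho −0.42, n = 8538 transcripts), and the pooled and batch 1 differences of all transcripts at r = −0.17 (rho −0.19, n = 19334). The libraries and rats of both batches are separate. Which tissue a library held rests on its label in both, without a check against markers, and the reason for the opposite signs was not tested. Of the pooled calls the shares were 35.7% and 33.2%, against 42.96% and 40.8% of all transcripts tested in both, read by the sign of the pooled difference. A test of the difference between the tissue contrasts of both batches, added after the data were seen, called 5097 of 20066 transcripts (25.4%), and 4819 without the mixed libraries. Batch and intervention cannot be told apart in this comparison, since no tumour of batch 2 was from an untreated rat.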

How the data were processed

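The authors trimmed paired reads of polyadenylated RNA with BBDuk, quantified transcripts of Ensembl release 94 (Rnor_6.0) by Kallisto pseudo-alignment and loaded these into sleuth. Both sleuth and Rnor_6.0 are named in the notes on processing by the submitters, and versions of the tools are not given in the sources used here. Deposited for each transcript were estimated counts, possibly fractional and unscaled between libraries. TPM values and effective lengths, deposited beside them by the authors, were used only for counts made from TPM and TPM levels. The file held 31715 transcripts and 65 libraries.

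Libraries were compared with limma voom (limma 3.58.1, R 4.3.3), with duplicateCorrelation on the rat in 2 rounds, a robust empirical Bayes model and scaling by the median of ratios. Transcripts needed 5 or more estimated counts in no fewer than 47% of libraries, as in sleuth, and were called at an adjusted p under 0.05 (Benjamini-Hochberg). One fit held tissue and intervention, and another the 4 group means. Log2 scaled CPM used a prior count of 0.5. Values of 1 kind per library were averaged per rat and compared by exact two-sided permutation. edgeR 4.0.16 and DESeq2 1.42.0 on rounded sums per rat and tissue were among the alternatives, and both limma and edgeR fits were first tested on simulated data.

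Rats were defined by number within intervention and batch. Libraries of 1 rat were taken to come from 1 animal. This was not tested, and LIR rat 19 had libraries in both runs of animal numbers. Under this reading, tumour and normal libraries are paired by animal. Correlations of their deviations from the group means were 0.16 and 0.11 in LIR rats 19 and 24 and 0.08 and −0.08 in RES rats 2 and 9. The labels do not say whether libraries of a rat came from separate pieces of tissue. The p-values therefore measure the spread between these libraries and rats. At fitted correlations within rats of 0.0816 pooled and 0.118 by group means, libraries of 1 rat weighed almost as separate replicates. With no such correlation, 5632 transcripts were called pooled, against 5517. No pair of libraries differed by as little as sampling noise, with a chi-square per transcript of at least 21.1 over 15457 transcripts, and each was kept. The rule for named transcripts took, among transcripts whose mean log2 CPM was 1 or more, the 2 of smallest p higher and lower in tumours. The members, lists and tests were chosen with earlier results of these data known. Gene lists drawn up for the design could not be applied without gene names, and no list was tested.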

Additional observations from a re-analysis of the deposited data

Results flagged for a closer look

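In diet-restricted rats, the normal library S40 of rat 6 had 40.05 scaled CPM of ENSRNOT00000084563.1, a transcript higher in tumours, where the next highest of the 10 normal libraries had 19.6. It was the only value set apart among 30 groups of values examined, and chance sets apart about 1 in 20. S40 also lay highest of the RES normal libraries on the first principal component, at −15.2.

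The tissue difference itself differed between interventions in 4521 transcripts, by a test of the difference in 1 fit. Among named transcripts, the LIR difference was below the RES difference for ENSRNOT00000000783.4, at −1.63 on the log2 scale, and above it for ENSRNOT00000023037.5, at 1.22. There were 2 tumour-bearing rats in each intervention, and the rats and interventions cannot be told apart.

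The tissue difference of treated rats in batch 2 differed from that of untreated rats in batch 1 in 5097 transcripts, where batch and intervention cannot be told apart.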

How the results depend on the processing

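The pooled count of 5517 stayed within 1.5 times under 16 other settings, including TMM (5493), edgeR (5169) and DESeq2 (6629) on sums per rat, and total counts as a term (4068). It was 0 with the replicate block (rat as a fixed term), where the numbers pair tumour and normal libraries of the 4 rats and fewer libraries were used. It was 3323 with only normal libraries of rats without a tumour library, 0 with LIR libraries alone and 9012 with RES alone. In LIR, where 0 were called, edgeR on sums gave 65, DESeq2 154, edgeR per library 61, filterByExpr 9, no correlation within rats 3 and library size only 2. Scaling by library size only moved the share of calls that were higher in tumours from 57.1% to 35.5% pooled and from 53.8% to 37.8% in RES, and the share with a larger LIR value from 49.3% to 65.8% for the difference between interventions. In rat 19 the within-rat count was 3775 against S54 alone in place of 2029.

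Leaving out 1 rat or tumour library gave 812 (RES rat 9) to 7738 (LIR rat 19) calls pooled, with 2940 without S42, 3304 without S43 and 3564 without RES rat 2. It gave 0 to 176 in LIR, with 176 without rat 19, 57 without S61 and 1 without S66. In RES it gave 4871 (without rat 9) to 8698. For the difference between interventions it gave 1360 to 5453, with 1360 without LIR rat 19, 2428 without RES rat 9, 2834 without S42 and 2964 without S61. Over tumour-bearing rats left out, the tumour excess in total counts was 715098 to 1361610. Its adjusted exact p was 0.0417 without RES rat 9 and up to 0.190, without RES rat 2. The difference in detected transcripts was −474 to −237, with an adjusted exact p of 0.0270 without LIR rat 19 and up to 0.260, without RES rat 9. That in the share of the top 100 transcripts was −0.0326 to 2.88 percentage points, below 0 only without LIR rat 24. The correlation with normal libraries kept its call in each. The 4 named transcripts kept their direction in all 45 settings each, and lost their call with the replicate block and in LIR alone. They were picked by smallest p in these same libraries, so a kept direction is no separate support.

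With 2 tumour-bearing rats per intervention, the values describe these rats. Alternatives without S64, without S59 and S64, without S53 to S56, with S54 and S55 as rats of their own, and without the mixed libraries of batch 1 were chosen after seeing the data, as was the comparison of the batches. Single transcripts in place of genes is not a separate setting here, since transcripts were the features throughout. The number of LIR transcripts in which tumour and normal libraries did not overlap was 199 without S59 and S64 and 144 without S53 to S56, against 79. Fewer normal libraries raise this number by themselves.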
